A study of Danio rerio with 12 samples.

Results

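Ribosomal protein genes encode the proteins that, together with ribosomal RNA, build the cytosolic ribosome. Their levels were followed in zebrafish embryos at 6hpf and 12hpf, with and without knockdown of TALE transcription factors. Members were the rows of both expression tables whose symbol begins with rpl or rps followed by a number, by p and a number or by a, without the S6 kinases. The rule found 81 of the 14850 listed genes, 47 of the large subunit and 34 of the small subunit. It used names alone and no measured value, although the set was chosen with earlier results of these data known.

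The large subunit joins amino acids and carries the exit tunnel, and the small subunit reads the mRNA. Vertebrate ribosomal protein mRNAs begin with a stretch of pyrimidines, the 5' terminal oligopyrimidine (TOP) motif, through which mTOR signalling and the RNA-binding protein LARP1 adjust their translation together. In the early embryo, ribosomes and many of these mRNAs are supplied by the mother, and embryonic transcription adds to them once the zygotic genome is active. Ekwill strain embryos were injected with morpholino oligos against the TALE genes pbx2, pbx4 and prep1.1 (the TALE KD groups, with prep1.1 listed as pknox1.1), and the other groups were controls. Whether the controls received a mock injection is not given in the sources used here, so injection and knockdown cannot be told apart. At 6hpf embryos are at the start of gastrulation and at 12hpf they form somites. There were 3 libraries of each of the 4 groups, each made from polyA RNA of a pool of whole embryos.

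The deposited estimated counts summed to between 11884808 and 15031222 per library at 6hpf and to between 19783332 and 40924971 at 12hpf. Levels are given below as CPM, that is counts scaled to one library size with the TMM factors of the 12 libraries. They were not divided by transcript length, so the CPM of different genes do not compare their amounts of transcript, and ranks by CPM served only to choose some of the genes named. Members had a median of 15015 counts per library in the fit over both stages, against 375.9 for all genes tested. Stage markers mostly followed the labels. In controls, 10 of 10 gastrula markers were called lower at 12hpf than at 6hpf, and 11 of 12 segmentation markers were called higher. The remaining segmentation marker, her7, was called lower. Transcripts of the targeted genes were not lower in TALE KD embryos, and pbx2 was higher at both stages, by 0.74 on the log2 scale at 6hpf (adjusted p = 0.00859) and 1.503 at 12hpf (adjusted p = 2.06e-05). Morpholinos can act on translation and leave the transcript in place, so these levels do not check the knockdown. Replicate 3 of both 12hpf groups stood apart from replicates 1 and 2 of its group. Its counts differed from theirs by a chi-square of 12.4 to 23.5 for each degree of freedom, compared with 2.61 and 3.10 between replicates 1 and 2. Between replicates at 6hpf, in libraries with fewer counts, this value was 6.85 to 15.4, so differences of the size seen in the 12hpf controls also occurred there. The stages came as separate tables, so stage and table cannot be told apart. In whole embryos, more cells of a type and more RNA per cell cannot be told apart either.

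The ribosomal protein genes took a far larger share of all counts at 12hpf than at 6hpf. Together they held 3.70%, 3.37% and 3.38% of the counts in control replicates 1, 2 and 3 at 6hpf, and 9.54%, 9.82% and 9.37% at 12hpf. The group mean went from 3.48% ± 0.190 to 9.58% ± 0.227 (SD, n = 3), a ratio of 2.75, and the stages were far apart compared with the replicates. In TALE KD embryos the shares were 3.53%, 3.42% and 3.56% at 6hpf and 9.13%, 9.02% and 8.75% at 12hpf. The means were 3.50% ± 0.0715 and 8.97% ± 0.191 (SD, n = 3), a ratio of 2.56. At 6hpf the control and TALE KD libraries overlapped, and at 12hpf every TALE KD library lay below every control library, the TALE KD mean differing from that of the controls by -6.41%. No test was run on these sums.

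Both subunits contributed to this pattern. In controls the large subunit genes held 2.02% ± 0.107 of the counts at 6hpf and 5.68% ± 0.135 at 12hpf, and in TALE KD embryos 2.03% ± 0.0469 and 5.33% ± 0.123. The small subunit genes held 1.46% ± 0.0835 and 3.90% ± 0.0923 in controls, and 1.48% ± 0.0246 and 3.64% ± 0.0686 in TALE KD embryos (SD, n = 3 in each group). For each subunit the control and TALE KD libraries overlapped at 6hpf and were separate at 12hpf. The ratio of large to small subunit counts was 1.38 ± 0.0131 in control and 1.37 ± 0.00936 in TALE KD embryos at 6hpf, and 1.46 ± 0.00494 and 1.46 ± 0.00765 at 12hpf. The large subunit share thus gained slightly more than the small subunit share between the stages, and this ratio overlapped between control and TALE KD libraries at both stages.

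**Figure D1:**
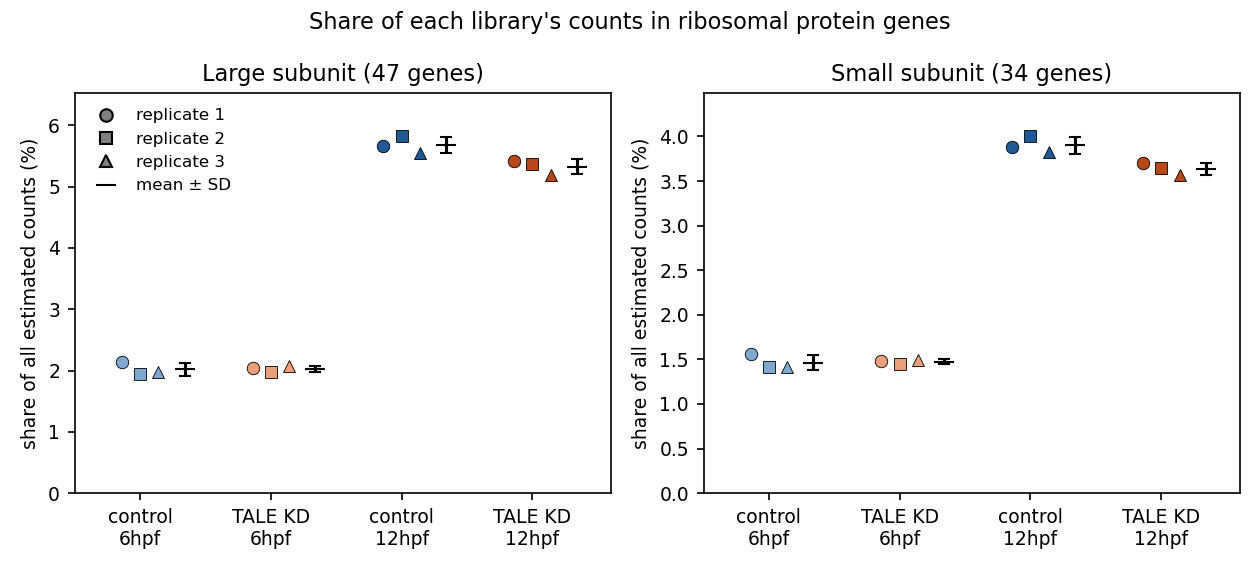
Share of each library's estimated counts (y axis, percent) that fell on the 47 large subunit genes (left) and the 34 small subunit genes (right) in the 4 groups. Points are libraries, marked by replicate number, and black bars are the mean ± SD (n = 3), and the 12hpf points lie far above those at 6hpf in both panels, with the TALE KD libraries below the controls at 12hpf alone.

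In control embryos, 76 of the 81 members were higher at 12hpf than at 6hpf and none was lower. A gene was called where edgeR's quasi-likelihood test gave an adjusted p no higher than 0.01 and the fitted change was 1.5-fold or more. The p-values were adjusted by the Benjamini-Hochberg method, here over 11450 genes. Of all genes tested, 32.8% were called higher and 26% lower. The called members were 44 of 47 in the large and 32 of 34 in the small subunit, with median log2 fold-changes of 1.33 and 1.16, where the median of all genes tested was 0.09. A rise of at least 2-fold was fitted for 59 members, of at least 2.5-fold for 31 and of at least 3-fold for 4. Over all genes tested, the upper quartile of the log2 fold-change began at 1.08 and the upper decile at 2.65. The largest value of a member was 1.77, so the steepest rises of all genes tested were steeper than that of any member. In 78 of 81 members all 3 libraries at 12hpf lay above all 3 at 6hpf, which held for 43.3% of all genes tested. Scaling to library totals in place of TMM moved the median of all genes by 0.24 and left 77 members called higher.

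The steepest rises among large subunit genes were those of rpl5a, rplp0 and rpl22l1. The protein of rpl5a binds 5S ribosomal RNA and brings it into the large subunit together with the product of rpl11. In control embryos rpl5a was at 354, 318 and 337 CPM at 6hpf and at 1145, 1185 and 1099.7 CPM at 12hpf in replicates 1, 2 and 3. The stages did not overlap, and the log2 fold-change was 1.77 ± 0.08 (SE), or 3.40-fold (adjusted p = 1.21e-10). The P-stalk, which recruits translation factors to the ribosome, is anchored by the product of rplp0. Its gene was at 925, 868 and 946 CPM at 6hpf and at 2885, 2904 and 2816 CPM at 12hpf. It rose 3.14-fold (log2 fold-change 1.65 ± 0.06, adjusted p = 2.01e-11). The gene rpl22l1 encodes a paralog of the RNA-binding protein Rpl22. It was at 66.5, 59.5 and 64.3 CPM at 6hpf and at 195, 217 and 174 CPM at 12hpf, a rise of 3.08-fold (1.62 ± 0.12, adjusted p = 1.79e-08).

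Among small subunit genes rps2, rps4x and rps10 led. The product of rps2 lines the channel by which mRNA enters the ribosome. Its level was 792, 789.9 and 765 CPM in the controls at 6hpf and 2527, 2454 and 2338 CPM at 12hpf. It rose 3.12-fold (1.64 ± 0.05, adjusted p = 9.28e-12), the only small subunit gene fitted above 3-fold. The rises of rps4x, from a mean of 760.0 to 2085 CPM, and of rps10, from 289 to 776 CPM, were 2.74-fold and 2.68-fold (adjusted p = 5.05e-11 and 5.95e-10).

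Members with well known separate roles rose as well, by less uniform amounts. Within the P-stalk, whose acidic arms are made of the products of rplp1 and rplp2, rplp1 rose 2.67-fold, rplp2 2.16-fold and its paralog rplp2l 2.35-fold (adjusted p of 2.45e-07 or lower). The partner of Rpl5 in the 5S particle, which in human cells also binds the p53 regulator MDM2, is encoded by rpl11. It went from 517 ± 34.5 to 992 ± 29.8 CPM (SD, n = 3), a rise of 1.92-fold (adjusted p = 2.40e-08). The protein of rpl3 reaches towards the peptidyl transferase centre, and its gene rose 2.94-fold, from 937 ± 43.9 to 2756 ± 112 CPM. The genes rpl4 and rpl39, for proteins of the exit tunnel wall, rose 2.39-fold and 2.31-fold. The gene rpl38, whose mouse counterpart is needed for translation of a set of Hox mRNAs, rose less, 1.76-fold from 257 ± 6.75 to 452 ± 20.6 CPM (adjusted p = 3.05e-08). The large subunit gene rpl7a was at 1146 ± 11.7 and 2901 ± 52.5 CPM, 2.53-fold higher.

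In the small subunit, rpsa, whose human counterpart is altered in congenital asplenia, went from 1044 ± 18.1 to 2603 ± 116 CPM, 2.49-fold. The gene rps6, whose product is the classical substrate of S6 kinase, rose 2.49-fold, and rps19, the human counterpart of which is altered in Diamond-Blackfan anaemia, rose 2.53-fold. The gene rps27a, translated as a fusion of ubiquitin with a ribosomal protein, rose 2.44-fold from 503 ± 33.0 to 1230.1 ± 56.3 CPM. Adjusted p-values of these 4 were 5.09e-10 or lower. The smaller rises in this subunit were those of rps28, 1.57-fold from 331 ± 24.3 to 521 ± 22.7 CPM, and rps29, 1.66-fold from 216 ± 17.5 to 359 ± 9.91 CPM. These lay at the lower end of the called members.

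In controls 5 members were not called over the stages, and 4 of them are described here. The gene rpl12 encodes the protein at the base of the P-stalk. It was at 1240.2, 1067 and 1124 CPM at 6hpf and 1306, 1341 and 1244 CPM at 12hpf, a difference of 0.18 ± 0.07 on the log2 scale (adjusted p = 0.0260). It thus stood apart from rplp0, rplp1 and both rplp2 genes of the same stalk, which were each called higher.

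The gene rpl7l1, the counterpart of a yeast factor of large subunit assembly (Rlp7) rather than of a protein of the mature ribosome, was at 279, 251 and 247 CPM at 6hpf and at 252, 259 and 236 CPM at 12hpf. The stages overlapped, with a log2 difference of -0.05 ± 0.06 and a 95% interval of -0.18 to 0.07. With library totals this difference was 0.18. Its paralog rpl7 rose 2.68-fold in the same libraries. The gene rpl37 was at 7.54, 6.72 and 6.96 CPM at 6hpf and 7.70, 6.26 and 7.502 CPM at 12hpf, a log2 difference of 0.02 ± 0.14, from 78 to 389 counts per library over all groups. The gene rps8b had 1 to 25 counts in any library, so its log2 difference of -0.84 ± 0.54 (adjusted p = 0.167) was not informative, while its paralog rps8a rose 2.35-fold.

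In TALE KD embryos 75 of 81 members were called higher at 12hpf, 44 of the large and 31 of the small subunit, and none lower, where 31.5% of all genes tested were called higher. The medians were 1.21 and 1.05 on the log2 scale. The uncalled member that had been called in controls was rps27.1, a small subunit gene with a log2 fold-change of 0.51 ± 0.08, or 1.43-fold (adjusted p = 4.87e-05). A rise of at least 2.5-fold was fitted for 16 members and of at least 3-fold for 1, rpl5a at 3.29-fold. Over all genes tested, the upper quartile began here at 1.00 on the log2 scale and the upper decile at 2.51. The latter was above the largest value of a member, 1.72. Across the 81 members the change in TALE KD embryos followed that in controls, with Pearson's r of 0.928 and Spearman's rho of 0.905. Each value of a group came from the same 6 libraries, so the members are not independent points. The change was smaller in TALE KD embryos for 73 of 81 members, with a median difference of -0.08 on the log2 scale, where 48.2% of all genes tested were below 0 and their median was 0.01. Without TALE KD replicate 3 at 12hpf this held for 63 of 80 members, and without control replicate 2 at 6hpf for 64 of 81.

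**Figure D2:**
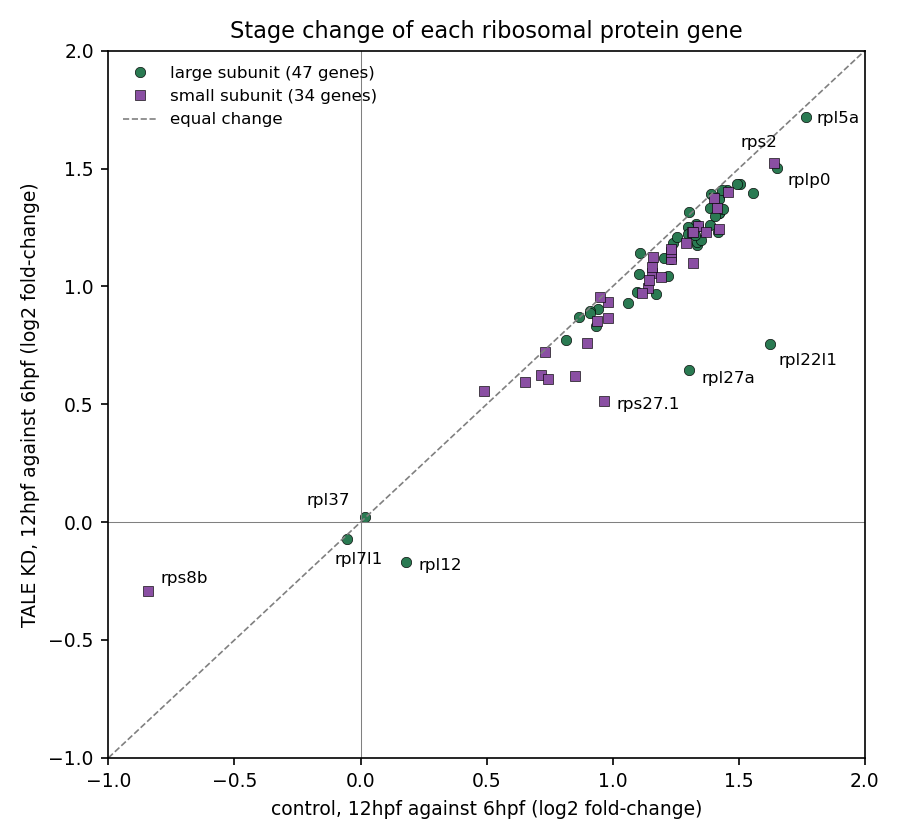
Log2 fold-change from 6hpf to 12hpf in control embryos (x axis) and in TALE KD embryos (y axis) for each of the 47 large subunit genes (circles) and 34 small subunit genes (squares), with a dashed line of equal change. Most genes lie just under the line, rpl22l1, rpl27a and rps27.1 lie well under it, and rpl7l1, rpl37, rpl12 and rps8b stand away from the rest near or below 0.

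At 6hpf TALE KD changed no ribosomal protein gene by the criteria used. edgeR's quasi-likelihood test called 0 of 80 members tested in either direction, where 0.0392% of all genes tested were called, and DESeq2 also called 0. An unadjusted p under 0.05 was found for 2 members, or 2.5% of them, and for 5.66% of all genes tested. The median log2 fold-change over the members was 0.03, and 56 of 80 were above 0, as were 52.8% of all genes tested. Without control replicate 1, 71 members were above 0, and without control replicate 2, 39, so that single libraries moved this balance. Control replicate 1 had the highest level of its group in 74 of the 80 members with at least 50 counts in each library. All libraries were higher or all lower in TALE KD for 5 of 80 members, against 11.1% of all genes tested.

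The 2 members with an unadjusted p under 0.05 were rps27.1 and rpl27a. Levels of rps27.1, which encodes a zinc finger protein of the small subunit, were 307, 271 and 286 CPM in the controls and 251, 226 and 254 CPM in TALE KD embryos at 6hpf. Every TALE KD library was lower, by 0.24 ± 0.08 on the log2 scale, and this did not pass adjustment (adjusted p = 0.666). The large subunit gene rpl27a had 19.5, 17.4 and 17.1 CPM in the controls and 23.6, 22.8 and 20.2 CPM in TALE KD embryos. Here every TALE KD library was higher, by 0.31 ± 0.12 (adjusted p = 0.767).

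At 12hpf rpl22l1 and rps27.1 were called lower in TALE KD embryos and no member was called higher. Of all genes tested, 1.26% were called lower at this stage, and only 34 of the 11640 were called higher. With the adjusted p alone, rpl12 was added, making 3 of 81 members, where 2.09% of all genes passed in this direction. The median log2 fold-change was -0.07 over all genes of each subunit and -0.003 over all genes tested. With the replicate number as a block, 11 members passed the adjusted p alone, each lower, where 8.15% of all genes tested did so, and rpl22l1 and rps27.1 stayed the ones called. The block treats libraries of equal number as pairs, which was not shown for replicates 1 and 2 at this stage.

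Expression of rpl22l1 at 12hpf was 195, 217 and 174 CPM in the controls and 94.3, 102 and 119 CPM in TALE KD embryos. The groups were widely separate, and the gene was 1.88-fold lower (log2 fold-change -0.91 ± 0.10, adjusted p = 0.00258). At 6hpf the levels had been 66.5, 59.5 and 64.3 CPM in controls and 58.1, 56.0 and 72.8 CPM in TALE KD embryos. These overlapped, with a log2 difference of -0.03 ± 0.11. Its paralog rpl22 was at 445, 465 and 421 CPM in the controls and 438, 447 and 416 CPM in TALE KD embryos at 12hpf, also overlapping. Work in zebrafish has described opposing roles of Rpl22 and Rpl22l1 in blood stem cells and in splicing during gastrulation.

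Expression of rps27.1 at 12hpf was 548, 585 and 554 CPM in the controls and 330.0, 323 and 391 CPM in TALE KD embryos. All TALE KD libraries lay below the controls, by 1.63-fold (log2 fold-change -0.71 ± 0.08, adjusted p = 0.00239). Its paralog rps27.2 was at 493, 513 and 476 CPM in the controls and 489.7, 484 and 467 CPM in TALE KD embryos, a difference of -0.05 ± 0.05 that was within the spread of the replicates. The gene rpl12 was at 1306, 1341 and 1244 CPM in the controls and 893, 900.1 and 1026 CPM in TALE KD embryos. It was lower in every TALE KD library, by 1.39-fold (-0.48 ± 0.06, adjusted p = 0.00436), which is under the fold threshold. In TALE KD embryos rpl12 was also lower at 12hpf than at 6hpf, by -0.17 ± 0.07 (adjusted p = 0.0378), whereas with library totals the value was 0.069.

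The calls for rpl22l1 and rps27.1 depended on the libraries at hand. Without control replicate 1 or 2, or without TALE KD replicate 1 or 2, neither was called, and the adjusted p of rpl22l1 reached 0.0258 and that of rps27.1 0.0186. The log2 fold-change stayed between -1.01 and -0.83 for rpl22l1 and between -0.80 and -0.65 for rps27.1 when any single library was left out. Without replicate 3 of both groups the same genes were called, and 17 members passed the adjusted p alone, each lower, as did 13% of all genes tested. In rpl22l1, rps27.1 and rpl12 the control and TALE KD libraries numbered 3 were closer to each other than those numbered 1 or 2.

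**Figure D3:**
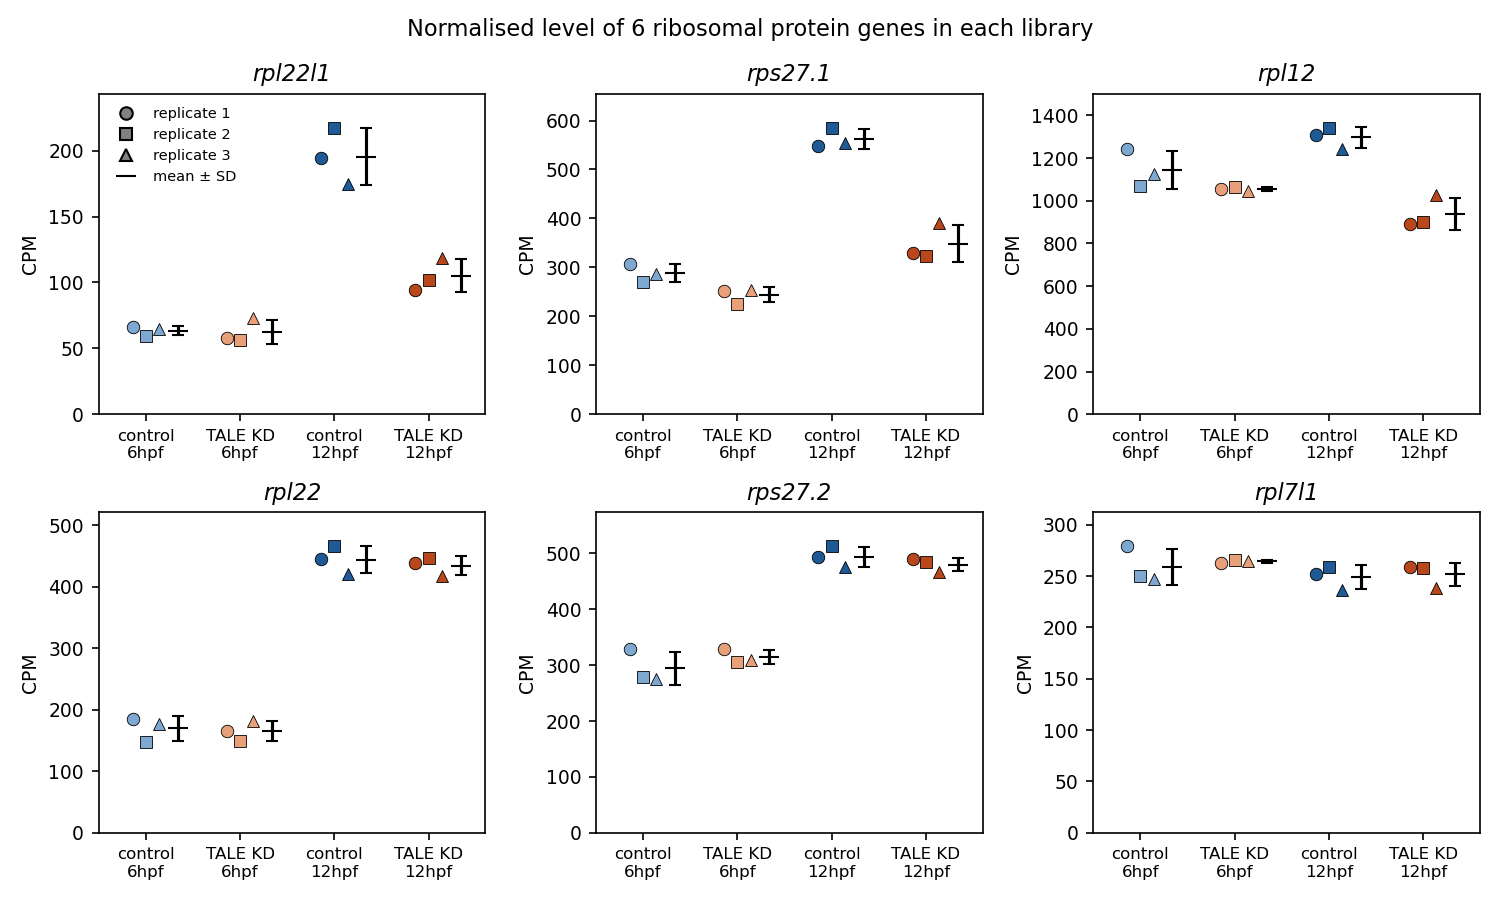
TMM-scaled CPM (y axes, each starting at 0) of rpl22l1, rps27.1, rpl12, rpl22, rps27.2 and rpl7l1 in the 12 libraries, grouped by treatment and stage, with points for libraries and black bars for the mean ± SD (n = 3). The TALE KD libraries lie below the controls at 12hpf for rpl22l1, rps27.1 and rpl12 and among them for rpl22, rps27.2 and rpl7l1.

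Small differences at 12hpf ran in one direction across the members. The log2 fold-change was below 0 for 77 of 81 members, 45 of 47 in the large and 32 of 34 in the small subunit, compared with 50.7% of all genes tested. In 58 of 81 members TALE KD was lower in all 3 pairs of equal replicate number, which held for 29.3% of all genes tested. Pairing by number was not shown for replicates 1 and 2 at this stage. In 26 of 81 all TALE KD libraries lay below all controls, against 17.3% of all genes tested, and in 0 they lay above. Among the 11640 genes tested they lay above in 1772. The groups overlapped in 55 of 81 members and in 7859 of the 11640 genes, so separation in either direction was about as frequent in both. An unadjusted p under 0.05 was found by edgeR for 21 of 81 members and for 3158 of the 11640 genes. All members were read in the same 6 libraries, so these counts do not stand for independent observations, and no list test was run. Without TALE KD replicate 3, 64 members were below 0, and without control replicate 2, 69. Stage markers also differed in these libraries. Of the gastrula markers, 9 of 9 tested were above 0 in TALE KD at 12hpf, with a median log2 fold-change of 0.24 and 0 called, and the summed level of the 10 listed was 578 to 629 CPM in controls and 675 to 748 CPM in TALE KD embryos. Of the segmentation markers, 9 of 12 were below 0, with a median of -0.32, 2 were called lower (myog, -3.16, and hoxb1a, -0.78) and none higher, and their summed level was 732 to 768 and 649 to 684 CPM. By the adjusted p alone, 1 gastrula marker, osr1, passed as higher, and 3 segmentation markers passed as lower, with myf5 added. Means of msgn1 and pax2a were higher in TALE KD (146 and 60.3 CPM) than in controls (125 and 58.8 CPM). The mean of her7 was also higher in TALE KD (37.7 against 33.6 CPM). Unlike the other segmentation markers, her7 was lower at 12hpf than at 6hpf in controls, where its 6hpf mean was 62.8 CPM. The study names hoxb1a and pax6a as lowered by TALE knockdown and cites Pbx binding at the myogenin locus. For myog, hoxb1a and pax6a, stage and a direct effect of the knockdown cannot be told apart. None of the gastrula and segmentation markers was at 0 throughout a 12hpf group. The part of these marker differences in the values of the ribosomal protein genes was not tested. The 4 members not below 0 were rpl7l1 (0.0004), rps29 (0.03), rpl37 (0.15) and rps8b (0.51 ± 0.40).

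The examples rplp0, rps2, rpl3 and rps9 belong to several parts of the ribosome. They were among the larger of these small differences, each below the lower quartile of the members (-0.12, with a median of -0.07). The stalk gene rplp0 was at 2885, 2904 and 2816 CPM in the controls and 2610.3, 2600.5 and 2383 CPM in TALE KD embryos at 12hpf, without overlap. It differed by -0.19 ± 0.05 on the log2 scale (adjusted p = 0.0405, and 0.00475 with the replicate block). The entry channel gene rps2 was at 2527, 2454 and 2338 CPM in the controls and 2270.2, 2235 and 2084 CPM in TALE KD embryos, also apart, with -0.17 ± 0.05 (adjusted p = 0.0778, and 0.00856 with the block). Another such pattern was seen for rpl3, at 2809, 2831 and 2628 CPM and at 2514, 2561 and 2407 CPM, with -0.16 ± 0.05 (adjusted p = 0.0717). None of the 3 passed the adjusted p of 0.01 without the block. The gene rps9, whose product lies near the mRNA entry, was picked out after its values were seen, at -0.23 ± 0.05 (adjusted p = 0.0231). By contrast, rpl5a was at 1145, 1185 and 1099.7 CPM in the controls and 1184, 1206 and 1066 CPM in TALE KD embryos, with 95% limits of -0.12 to 0.11 for the log2 difference.

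**Figure D4:**
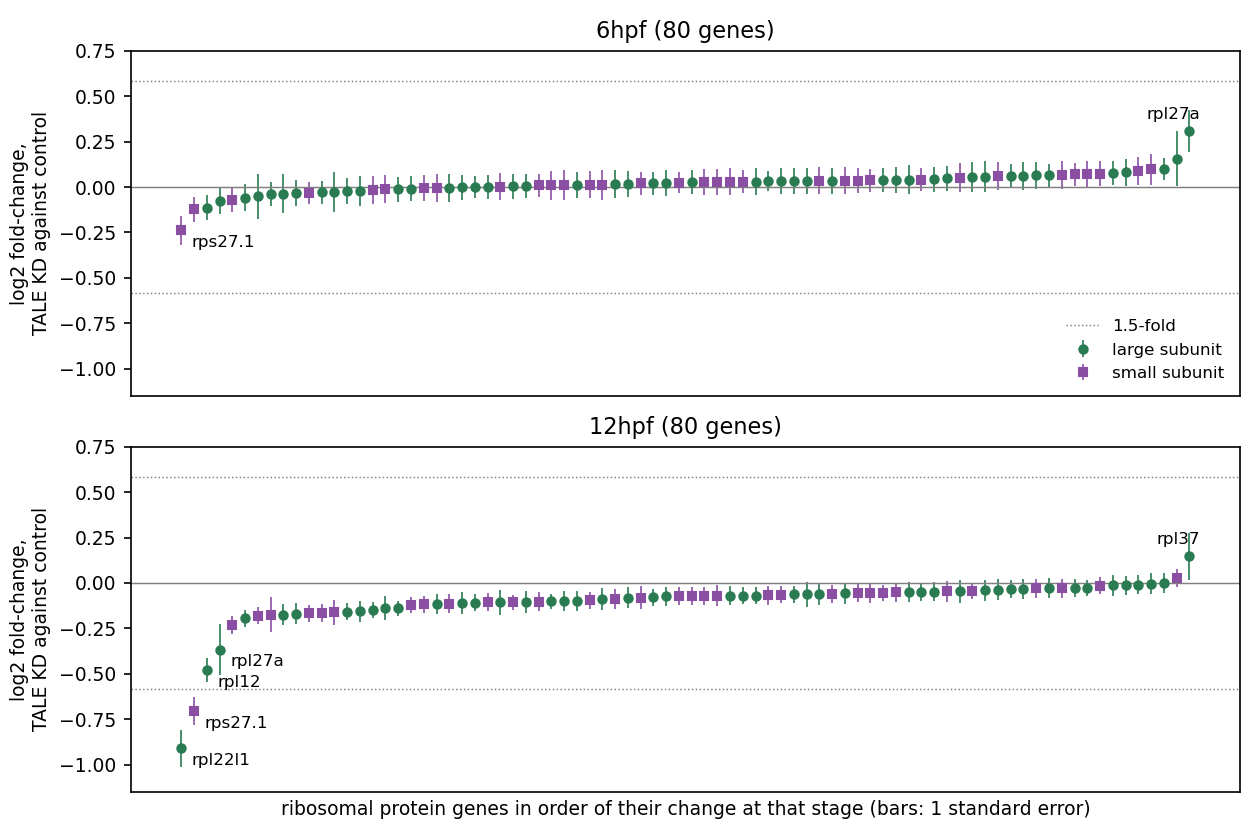
Log2 fold-change of TALE KD against control (y axis) at 6hpf (top) and 12hpf (bottom), with the ribosomal protein genes in order of that change along the x axis, bars of 1 standard error and dotted lines at 1.5-fold. The low-count gene rps8b is left out of both panels, the 80 genes shown at 6hpf scatter around 0, and at 12hpf most sit slightly below 0 with rpl22l1 and rps27.1 under the lower dotted line.

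The knockdown effect was not shown by edgeR to differ between the stages for any member. The interaction test of edgeR called 0 of 81, where 0.0349% of all genes tested were called, while DESeq2 called 1, rpl22l1 (adjusted p = 4.39e-04). The effect on rpl22l1 was lower at 12hpf than at 6hpf by -0.87 ± 0.16 on the log2 scale (edgeR adjusted p = 0.0499), and for rps27.1 the difference was -0.45 ± 0.11 (adjusted p = 0.173). For rpl27a, which had been higher in TALE KD at 6hpf and was at 48.3, 45.6 and 39.1 CPM in controls and 41.04, 35.9 and 27.8 CPM in TALE KD embryos at 12hpf, it was -0.66 ± 0.19 (adjusted p = 0.262). An unadjusted p under 0.05 was found for 5 members, or 6.17%, against 8.67% of all genes tested, and for 27, or 33.3%, against 10.8%, when control replicate 1 at 6hpf was left out. That library was the highest of its group for most members, as given above.

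Several members belong to pairs of paralogs, and the division of counts differed between the stages in both treatments for rpl5a, rpl7l1 and rps26l with their partners. For 7 pairs the share of the first gene was compared between the 6 libraries at 6hpf and the 6 at 12hpf, control and TALE KD pooled, by a two-sided exact permutation test adjusted over the 7 pairs, where the smallest possible p was 0.00216. This test finds shifts shared by both treatments, and opposite shifts cancel in it. RSEM divides reads that match both members of a pair, so shares of near-identical genes are in part estimates. The share of rpl5a in the counts of rpl5a and rpl5b was 27.5% to 29.8% at 6hpf and 41.7% to 42.8% at 12hpf (adjusted p = 0.00505). Both genes rose, rpl5b from 857 ± 53.6 to 1562 ± 82.0 CPM in controls, and rpl5a rose more. The share of rps26l in its pair with rps26, a gene for a protein at the mRNA exit channel, was 53.4% to 56.0% at 6hpf and 60.0% to 62.4% at 12hpf (adjusted p = 0.00505). Again both genes rose, rps26l 2.66-fold and rps26 1.93-fold in controls. The share of rpl7l1 in its pair with rpl7 was 25.9% to 28.3% at 6hpf and 11.6% to 12.2% at 12hpf (adjusted p = 0.00505) and of these only rpl7 was called higher.

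The share of rplp2l with rplp2 was 79.2% to 82.1% at 6hpf and 79.8% to 82.0% at 12hpf (adjusted p = 0.470), overlapping between the stages within each treatment. At 12hpf it was 82.0%, 81.8% and 80.8% in controls and 79.8%, 80.3% and 80.7% in TALE KD embryos, slightly lower in every TALE KD library. The share of rps8b with rps8a never exceeded 0.111% (adjusted p = 0.0265). In the pair of rpl22l1 with rpl22 the share of rpl22l1 was 26.5%, 28.8% and 26.7% in controls and 26.0%, 27.4% and 28.6% in TALE KD embryos at 6hpf. At 12hpf it was 30.4%, 31.8% and 29.3% in controls and 17.7%, 18.6% and 22.2% in TALE KD embryos. The share of rpl22l1 was thus higher at 12hpf than at 6hpf in every control library and lower in every TALE KD library, and the pooled test, in which these cancel, gave an adjusted p of 0.470. In the pair of rps27.1 with rps27.2 the share of rps27.1 was 48.3%, 49.3% and 50.9% in controls and 43.2%, 42.6% and 45.1% in TALE KD embryos at 6hpf. At 12hpf it was 52.6%, 53.3% and 53.8% against 40.3%, 40.1% and 45.6%. For this pair control and TALE KD libraries were apart at both stages, and the stages were apart in controls and overlapped in TALE KD embryos (pooled adjusted p = 0.727). An exact test of 3 libraries against 3 cannot give a p under 0.10, so shifts by knockdown, or by stage within a treatment, were not tested.

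**Figure D5:**
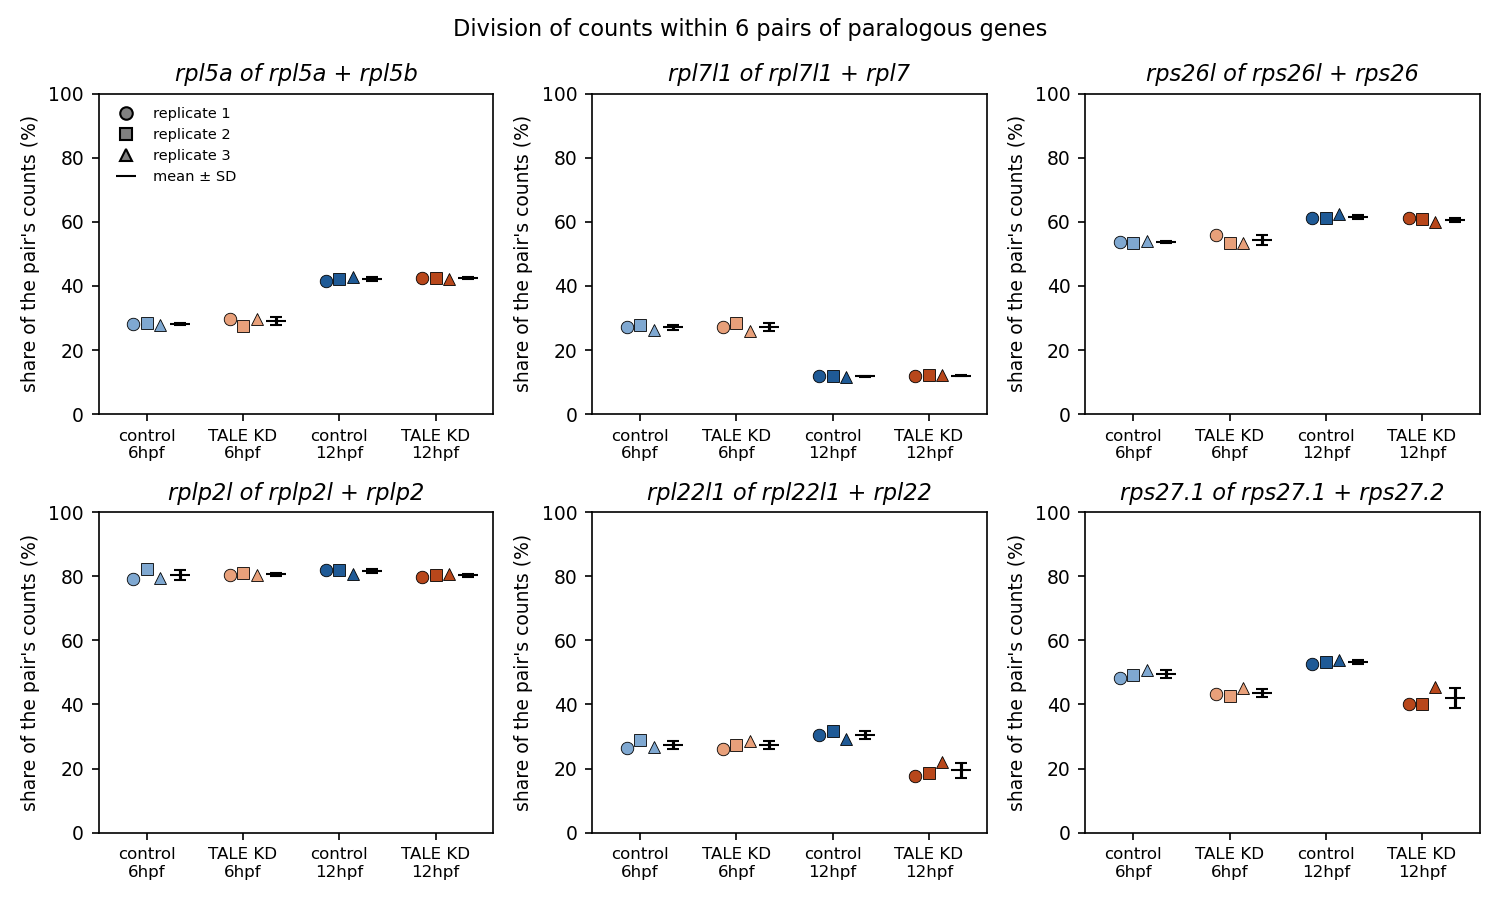
Share of the pair's estimated counts (y axes, percent) taken by the first named gene in 6 pairs of paralogs, with libraries as points and black bars for the mean ± SD (n = 3). The stages differ for rpl5a, rpl7l1 and rps26l, and the TALE KD libraries lie below the controls at 12hpf for rpl22l1 and, slightly, for rplp2l, and at both stages for rps27.1.

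Ribosomal protein genes outside the name rule showed the stage pattern with 1 exception. Of 3 such genes described here, gnb2l1 (the scaffold protein Rack1) and faua were called higher at 12hpf in controls, and faub was called lower. The products of faua and faub are fusions of a ubiquitin-like domain with a small subunit protein. In controls faua was at 146, 136 and 123 CPM at 6hpf and 488, 514 and 467 CPM at 12hpf, a log2 fold-change of 1.86 ± 0.07 (adjusted p = 3.72e-11). In the same libraries faub was at 79.8, 69.3 and 71.4 CPM and then at 23.9, 22.5 and 26.2 CPM, a change of -1.60 ± 0.08 (adjusted p = 5.62e-10). The paralogs thus moved in opposite directions. None of the 3 was called in TALE KD against control at either stage by edgeR or DESeq2, and an unadjusted p under 0.05 was found for 0 at 6hpf and for faua and faub at 12hpf.

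Other genes of the translation machinery followed the ribosomal proteins less closely. Of 33 tested genes for translation factors and other mRNAs known to carry a TOP motif, 14 were called higher and 4 lower at 12hpf in controls, with a median log2 fold-change of 0.43. In the same comparison 32.8% of all genes tested were called higher and 26% lower. The elongation factor genes eef1db, at 1.95 ± 0.15, and eef1g, at 1.07, were among those that rose. Other elongation factor genes, eef1da at -0.70 and eef2a.2 at -0.64, were called lower. So was hnrnpa1b, for an RNA-binding protein, at -1.32. The elongation factor gene eef1a1l1 was not called, at -0.18 ± 0.06. Of 68 mitochondrial ribosomal protein genes, which build a separate ribosome inside mitochondria, 27 were called higher and 3 lower, with a median of 0.35. Of 59 ribosome biogenesis genes 1 was called higher and 11 lower, where 32.8% and 26% of all genes tested were. By the adjusted p alone 10 were higher and 30 lower, where 4348 and 3785 of the 11450 genes tested were. The log2 fold-change was below 0 for 41 of these 59 genes and for 47.3% of all genes tested. The median of the biogenesis genes was -0.28, and the value of rpl7l1 (-0.05) lay between this and the medians of the ribosomal proteins. The ribosomal RNA transcription factor gene ubtf, at -1.47 ± 0.09 (adjusted p = 2.50e-09), was among those lower. Shares called higher among the cytosolic genes were thus above those in each of these lists, which was described and not tested.

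In TALE KD against control at 12hpf, 2 of 33 genes of the TOP list were called lower, hnrnpa1a (-1.06 ± 0.08, adjusted p = 4.59e-04) and the helicase gene eif4a1b (-0.71 ± 0.09, adjusted p = 0.00445), and 0 higher. The share of all genes tested called lower was 1.26%, and 2.09% were lower by the adjusted p alone. Of the 11640 genes tested, 34 were called higher. With the adjusted p alone, 5 passed lower, among them the elongation factor genes eef1b2 (-0.42) and eef1g (-0.39), and 1 higher, hnrnpa1b (0.32). The elongation factor genes eef2b (0.22 ± 0.07) and eef1a1l1 (0.08 ± 0.07) were above 0 and did not pass. The medians were -0.05 in this list, -0.05 in the mitochondrial and -0.002 in the biogenesis list, where 2 genes each were called lower. Markers of other tissues in the pool were compared between the groups at 12hpf. The summed level of 7 listed enveloping layer genes was 25028 to 26973 CPM in controls and 24534 to 25632 CPM in TALE KD embryos, and that of 5 yolk syncytial layer genes 10674 to 11829 and 10507 to 12480 CPM, both overlapping. In controls at 6hpf these sums had been 15624 to 18288 CPM and 7036 to 7637 CPM, lower than at 12hpf. Of 7 tested enveloping layer genes 5 were called higher at 12hpf and 0 lower, and of 4 tested yolk syncytial layer genes 2 were called higher and 1, mxtx2, lower (-4.82, adjusted p = 1.60e-07). No enveloping layer gene and 1 yolk syncytial layer gene was at 0 in every 6hpf control library. In TALE KD against control at 12hpf, 6 of 7 enveloping layer genes were below 0 (median log2 fold-change -0.09, 0 called), as were 50.7% of all genes tested. At 6hpf 0 of 7 were below 0 (median 0.16), and in the interaction 7 of 7 (median -0.25). Of 3 tested yolk syncytial layer genes, 2 were below 0 at 12hpf (median -0.08). The part of these tissues in the stage change and in the knockdown differences was not tested.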

How the data were processed

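RNA-seq was measured in 12 libraries of polyA RNA from pooled whole embryos, 3 in each of 4 groups. The values deposited by the authors are estimated counts per gene from RSEM 1.2.28, which they ran on trimmed strand-specific reads against the transcriptome of build DanRer10. TPM appears in the names of the tables, but the totals differ between libraries, and the values were read as counts and rounded to whole numbers. No sample column was left unused.

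Members and gene lists were chosen with earlier results of these data known. A gene was tested where its mean reached 10 counts, with edgeR 4.0.16 (glmQLFTest, TMM, R 4.3.3), 10202 at 6hpf and 11640 at 12hpf within the stage, and 11450 in a fit of all 12 libraries for the stage change and the interaction. Adjusted p-values are Benjamini-Hochberg values over all genes tested, and standard errors come from the log2 fold-change and its F statistic. Limits are 1.96 standard errors, which with so few libraries is narrower than a 95% interval. Paralog shares were compared with SciPy 1.17.1. The tests were first run on simulated counts with the same spread for every gene, no replicate effect and changes of at least 2-fold. They were thus not tried on the smaller changes found between TALE KD and control. Alternatives were DESeq2 1.42.0, library totals with and without the ribosomal protein genes, no filter, a replicate block and leaving out libraries. Libraries of equal number deviated together, with r of 0.346 to 0.502 at 6hpf and 0.336 to 0.576 at 12hpf. Those of different number had r of -0.391 to -0.0473 at 6hpf, so libraries of equal number were the most alike there. Deviations of libraries within a group depend on each other, so negative values accompany the positive ones. Pairing itself was not tested. At 12hpf control replicate 1 with TALE KD replicate 2 gave 0.314, and control replicate 2 with TALE KD replicate 1 gave 0.293. These lie close to their values for equal number, 0.336 and 0.367, so pairing of replicates 1 and 2 was not shown at 12hpf. The remaining values for different number at 12hpf were -0.445 to -0.409. Pairing was looked for in the data and is not given by the labels. Labels call the replicates biological.

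Named genes were members called in TALE KD, the 3 highest, lowest, most and least risen of each subunit, the largest knockdown differences, members with listed roles and paralog pairs. The listed rps27l, rpl41 and rps19bp1 are not among the rows used. The study left out 1 library at 12hpf, which its text does not name, and all were kept here. Sequences and coordinates were not used here, and some listed genes are not reported here.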

Additional observations from a re-analysis of the deposited data

Results flagged for a closer look

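The share of rpl22l1 in the counts of rpl22l1 and rpl22 moved in opposite directions between the stages. From 6hpf to 12hpf its mean went from 27.3% to 30.5% in controls and from 27.3% to 19.5% in TALE KD embryos, with the libraries of the stages apart in each. The shift in TALE KD embryos minus that in controls was -11.0 percentage points, and this difference was not tested.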

How the results depend on the processing

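The number of ribosomal protein genes called over the stages was 73 to 77 under every alternative run, and at 6hpf 0 were called under each. At 12hpf TALE KD gave 0 to 2 calls when 1 library was left out and 2 calls under all other alternatives, the replicate block included, which changed no call except that it moved those past the adjusted p alone from 3 to 11. In the interaction DESeq2 called 1. With library totals the median stage change was 1.57 and 1.40 in controls (large and small subunit) and 1.44 and 1.28 in TALE KD embryos, and with totals that leave out the ribosomal protein genes 1.66, 1.49, 1.53 and 1.37, as these scalings move the median of all genes by 0.24 to 0.33. Under them rpl12 in TALE KD embryos turned to 0.069 and 0.15, rpl7l1 in controls to 0.18 and 0.28 and rpl7l1 in TALE KD embryos to 0.16 and 0.25, and with single libraries left out rpl7l1 in controls lay from -0.095 to 0.0035. Without the 10 most abundant other genes the shares were 2.22%, 2.23%, 6.27% and 5.90% for the large and 1.60%, 1.62%, 4.31% and 4.03% for the small subunit, in the order control and TALE KD at 6hpf, then at 12hpf, and without rpl22l1, rpl7l1, rplp2l and rps26l the large subunit share in TALE KD at 6hpf was 1.97%. The causes were not tested beyond what each construction shows. The planned promoter and protein comparisons were not run. Depth limits rps8b, the member with the lowest counts. The next lowest, rpl37, had 78 to 389 counts per library. Its standard error for the stage change in controls was near the median of all genes tested (0.14).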
